A study of Mus musculus with 10 samples.

Results

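The Ly6 genes described here encode small surface antigens of leukocytes. The set holds 5 genes, Ly6a, Ly6c1, Ly6c2, Ly6d and Ly6e, taken by symbol from a table of 54532 genes in which each symbol occurs once. Their transcripts were counted by RNA sequencing of splenic B cells. For the fibrosis group, 5 libraries, the liver was scarred by intraperitoneal CCl4 (carbon tetrachloride, a solvent that injures hepatocytes) given for 4 weeks. The control group, 5 libraries, was wildtype mice. The sources used here give no strain, sex, age, vehicle for the controls or method of B cell isolation, and the labels do not say that each library is a separate animal.

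Ly6 proteins carry a compact fold held together by disulfide bonds and are tethered to the outer face of the membrane by a glycosylphosphatidylinositol (GPI) anchor. In mice several of them serve as antigens for sorting cells. Ly6a is Sca-1, used to isolate haematopoietic stem cells and also present on lymphocytes. Ly6c1 and Ly6c2 together make up the Ly-6C antigen of monocytes, plasma cells and some T cells and endothelium. Ly6d is the ThB antigen of the B lineage, and Ly6e is TSA-1, also called Sca-2. Ly6a and Ly6e are induced by interferons.

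All 5 genes lie on chromosome 15 (GRCm38). Ly6d is at chr15:74762056-74763620 on the minus strand, Ly6e at chr15:74955051-74959905 on the plus strand, and Ly6a at chr15:74994877-74998031 on the minus strand. Ly6c1 at chr15:75044018-75048830 and Ly6c2 at chr15:75108158-75111970 are both on the minus strand. No other gene of the table overlaps any of them in coordinates.

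Ly6c1 and Ly6c2 are so alike that reads may not tell them apart, so their coding sequences are shown for the stretch in which they differ most, coding bases 1 to 120 (GENCODE vM21, sense strand). Capitals mark the 6 bases that differ within it.
Ly6c1: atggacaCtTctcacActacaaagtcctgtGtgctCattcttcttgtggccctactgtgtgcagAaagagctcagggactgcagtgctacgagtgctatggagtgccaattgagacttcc
Ly6c2: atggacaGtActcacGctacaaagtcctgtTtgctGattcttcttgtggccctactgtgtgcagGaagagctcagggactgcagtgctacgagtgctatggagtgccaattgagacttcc
Over the whole coding sequence of 396 bases, 387 were identical (97.7%). Ly6a was 82.0% identical to Ly6c1 and 81.7% to Ly6c2. All pairs with Ly6d or Ly6e were 49.4% to 52.6% identical.

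Across whole transcripts, exact sharing of stretches was counted, a measure that cannot be set beside percent identity. Any mismatch breaks every stretch that spans it. All annotated transcripts of a gene were pooled, coding or not. Of all 100-base stretches, 10.1% of those of Ly6c1, 5.81% of those of Ly6c2 and 1.45% of those of Ly6a also occurred in a transcript of another gene, on either strand. No (0) stretch of Ly6d or Ly6e did. At 50 bases the shares were 32.8% for Ly6c1, 14.5% for Ly6c2 and 19.0% for Ly6a. At 150 bases they were 2.29%, 1.42% and 0% for the same genes. The sources used here give neither the read length nor how reads with several matches were counted.

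The upstream regions of Ly6c1 and Ly6c2 differed more than their coding sequences. They are shown because genes so alike in coding sequence differed widely in level. The part of upstream sequence in the levels was not tested. RefSeq (GRCm38.p6) promoters, from 250 bases before to 50 bases after the start and read 5′ to 3′ on the minus strand, matched for 2 of the 5 genes. Ly6a, Ly6d and Ly6e had no entry. Capitals mark bases that differ or have no counterpart in the alignment of the pair.
Ly6c1 at chr15:75048788-75049087: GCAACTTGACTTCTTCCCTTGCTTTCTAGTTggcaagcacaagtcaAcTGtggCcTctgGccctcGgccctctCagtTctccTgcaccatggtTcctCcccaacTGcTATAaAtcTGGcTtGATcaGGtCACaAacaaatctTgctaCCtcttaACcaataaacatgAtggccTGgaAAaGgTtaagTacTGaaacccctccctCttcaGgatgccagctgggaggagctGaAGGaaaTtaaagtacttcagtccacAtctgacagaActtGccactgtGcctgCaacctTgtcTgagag
Ly6c2 at chr15:75111922-75112221: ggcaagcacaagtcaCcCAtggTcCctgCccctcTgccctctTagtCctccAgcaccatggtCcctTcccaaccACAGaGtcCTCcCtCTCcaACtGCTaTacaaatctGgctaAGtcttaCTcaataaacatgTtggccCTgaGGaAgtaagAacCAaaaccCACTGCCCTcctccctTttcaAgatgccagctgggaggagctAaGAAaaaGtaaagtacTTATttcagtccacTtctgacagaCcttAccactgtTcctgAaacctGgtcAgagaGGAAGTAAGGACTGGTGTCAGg
The pair was identical in 208 of 334 aligned columns (62.3%), with 58 mismatches and 68 columns with a gap. The runs of capitals at the start of the Ly6c1 window and near the end of the Ly6c2 window are gap columns. They depend on where each window begins, so the 62.3% does not measure sequence difference alone. On both strands, neither window held the interferon-stimulated response element (TTTC, any 2 bases, TTTC), found in 3.44% of all 32851 promoters of this length. Neither held the interferon-gamma-activated site TTCNNNGAA, found in 8.30%. Each gene had a further promoter entry, not shown, at chr15:75048614-75048913 for Ly6c1 and chr15:75111888-75112187 for Ly6c2. These windows held neither motif.

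The fibrosis libraries held 13439100 to 17069393 counts and the control libraries 15912080 to 17954551. All 8 B cell markers examined were present, with a summed level of 6056 to 8624 CPM (counts scaled to library size by edgeR's TMM factors) in fibrosis and 5758 to 6567 CPM in control. Markers of other cells were present too. Summed monocyte markers (9 genes) ranged from 1308 to 4092 CPM in fibrosis and from 2558 to 4131 CPM in control, and plasma cell markers (7 genes) from 622.7 to 853.1 CPM in fibrosis and 585.9 to 741.6 CPM in control. Fibrosis libraries 4 and 5 stood apart, with the highest summed neutrophil (3705 and 4574 CPM), macrophage (3709 and 3992 CPM) and platelet (1170 and 1206 CPM) markers of all libraries. Results are therefore also given without them.

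Ly6a and Ly6d were higher in fibrosis, 2.39-fold and 1.49-fold, and in both genes every fibrosis library lay above every control library. Ly6e and Ly6c2 did not pass the test, and Ly6c1 was nearly absent. The quasi-likelihood test of edgeR was run over 14283 genes with enough counts, and those with an adjusted p under 0.05 were called. By that rule 2 of the 5 genes were higher, 0 were lower, 2 were not called and Ly6c1 was not tested. Among all tested genes 35.7% were called, 18.6% as higher and 17.2% as lower. The groups did not overlap in 25.4% of them, with fibrosis above in 11.4% and below in 14.0%. Against that background, 2 of 4 tested members called (50%) is not a result about the family.

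**Figure D1:**
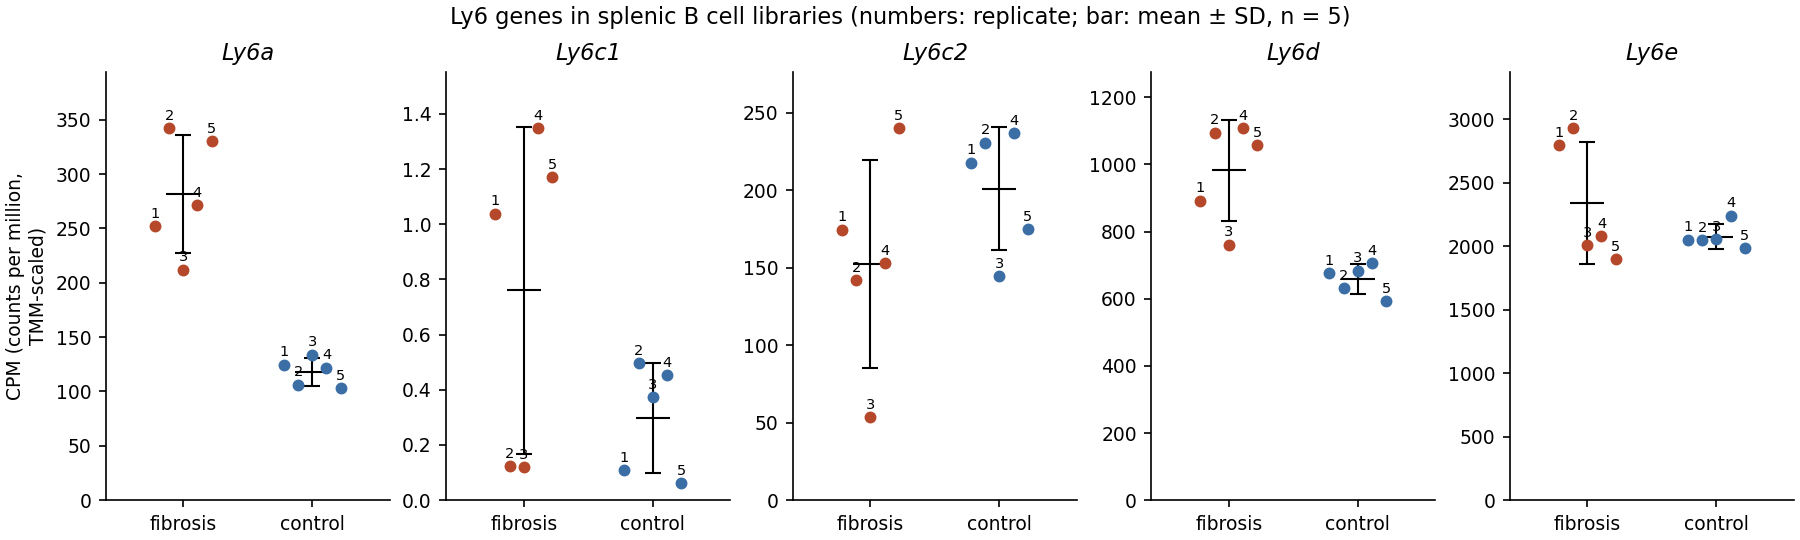
Level of each Ly6 gene in CPM (TMM-scaled, linear axes from 0) in the 5 fibrosis and 5 control libraries, with replicate numbers beside the points and mean ± SD bars. Ly6a and Ly6d separate the groups completely, Ly6e is high in fibrosis 1 and 2, Ly6c2 is lowest in fibrosis 3, and Ly6c1 stays below 1.4 CPM.

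Ly6a stood at 252, 342, 212, 271 and 330 CPM in fibrosis 1 to 5, against 125, 106, 134, 122 and 103 CPM in control 1 to 5. The lowest fibrosis library was fibrosis 3, and it still lay above the highest control. The mean was 281.5 ± 54.5 CPM in the fibrosis group and 118.0 ± 12.9 CPM in the control group (SD, n = 5 each). The log2 fold change was 1.25 ± 0.13 (SE, adjusted p = 3.16e-05 by edgeR). Without fibrosis 4 and 5 it was 1.19 (adjusted p = 6.4e-05 by edgeR), within a range of 1.2e-20 to 0.000628 over all alternatives. Per 1000 CPM of summed B cell markers, Ly6a stood at 26.4 to 51.9 CPM in fibrosis and at 17.5 to 21.6 CPM in control, again without overlap. Ly6a also marks stem cells, and 7 stem and progenitor markers summed to 46.0 to 60.2 CPM in fibrosis and 54.4 to 61.3 CPM in control. Marker sums of other cells that can carry Ly6a did not all separate the groups. The 8 conventional dendritic cell markers (5 higher, 0 lower) summed to 288 to 361.8 CPM in fibrosis and 176.9 to 192.7 CPM in control, without overlap. The 9 T cell markers (1 higher, 0 lower) summed to 79.4 to 131 CPM in fibrosis and 69.9 to 93.3 CPM in control. The 8 NK cell markers (3 higher, 0 lower) summed to 75.1 to 158 CPM in fibrosis and 68.1 to 118.4 CPM in control. The 10 endothelial markers (2 higher, 2 lower) summed to 91.5 to 222.6 CPM in fibrosis and 120.9 to 144.7 CPM in control. In fibrosis 1 and 2 the endothelial sum lay below every control. Among all tested genes 18.6% were called higher and 17.2% lower. The T cell, NK cell and endothelial sums overlapped between the groups. The part of all these cell types in the Ly6a result was not tested.

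Ly6d, which marks the B lineage, had 892, 1094, 761, 1108 and 1057 CPM in fibrosis 1 to 5, against 676, 632, 683, 706 and 593 CPM in control 1 to 5. Fibrosis 3 was again the lowest of its group and lay above control 4, the highest control. The mean was 982.5 ± 151 CPM in the fibrosis group and 658.0 ± 45.1 CPM in the control group (SD, n = 5 each), a log2 fold change of 0.58 ± 0.11 (SE, adjusted p = 0.00161 by edgeR). Without fibrosis 4 and 5 it was 0.48 (adjusted p = 0.00381 by edgeR; 1.8e-05 to 0.00942 over all alternatives). Relative to the summed B cell markers the groups overlapped. The values were 109, 127, 94.6, 183 and 166 CPM of Ly6d per 1000 CPM of markers in fibrosis 1 to 5, and 100 to 117 in control. Of the 8 B cell markers, 3 were called higher and 0 lower. That share, 37.5%, was near the 35.7% of all tested genes called. In these bulk libraries more cells of a type and more RNA per cell cannot be told apart. Ly6d is also expressed by plasmacytoid dendritic cells and lymphoid progenitors. The 6 markers of those dendritic cells summed to 32.65 to 45.87 CPM in fibrosis and 27.99 to 38.18 CPM in control, and the 7 progenitor markers to 39.9 to 49.0 CPM in fibrosis and 79.4 to 114.1 CPM in control. Their part in the Ly6d result was not tested.

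Ly6e had the most reads of the set. Its level was 2796, 2932, 2010, 2080 and 1899 CPM in fibrosis 1 to 5, against 2052, 2048, 2057, 2242 and 1985 CPM in control 1 to 5. Fibrosis 1 and 2 lay above all controls, while fibrosis 5 lay below all of them. The log2 fold change was 0.17 ± 0.13 (SE, adjusted p = 0.311 by edgeR). The spread was 20.6% of the mean in fibrosis and 4.65% in control (coefficient of variation, n = 5 each). Without fibrosis 4 and 5 the change was 0.32 and passed (adjusted p = 0.0378 by edgeR; 0.0378 to 0.717 over all alternatives). Relative to 1000 CPM of B cell markers, which were highest in fibrosis 1, 2 and 3 (8164, 8624 and 8040 CPM), Ly6e stood at 250 to 344 CPM in fibrosis and 313 to 372 CPM in control.

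Ly6c2 varied most among the tested members. It stood at 174, 142, 53.7, 153 and 240 CPM in fibrosis 1 to 5, against 218, 231, 144, 237 and 175 CPM in control 1 to 5. The groups overlapped, with fibrosis 5 above every control and fibrosis 2 and 3 below every control. The log2 fold change was -0.40 ± 0.31 (SE, adjusted p = 0.346 by edgeR), and -0.70 without fibrosis 4 and 5 (adjusted p = 0.164 by edgeR; 0.0826 to 0.489 over all alternatives). Ly6c2 is abundant in monocytes, and the summed monocyte markers varied with it across libraries, though not in strict order. Fibrosis 4 had more of them than fibrosis 1 (3291 against 2690 CPM) but less Ly6c2. They were lowest in fibrosis 3 (1308 CPM) and fibrosis 2 (1941 CPM), the libraries lowest in Ly6c2. Per 1000 CPM of those markers, Ly6c2 stood at 56.8 ± 13.1 CPM in the fibrosis group and 58.0 ± 3.86 CPM in the control group (SD, n = 5 each). Most of the sum came from 1 marker, Lyz2. Its mean was 1632 of 2664 CPM in fibrosis and 2353 of 3483 CPM in control. The part of monocytes in the Ly6c2 values was not tested.

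**Figure D2:**
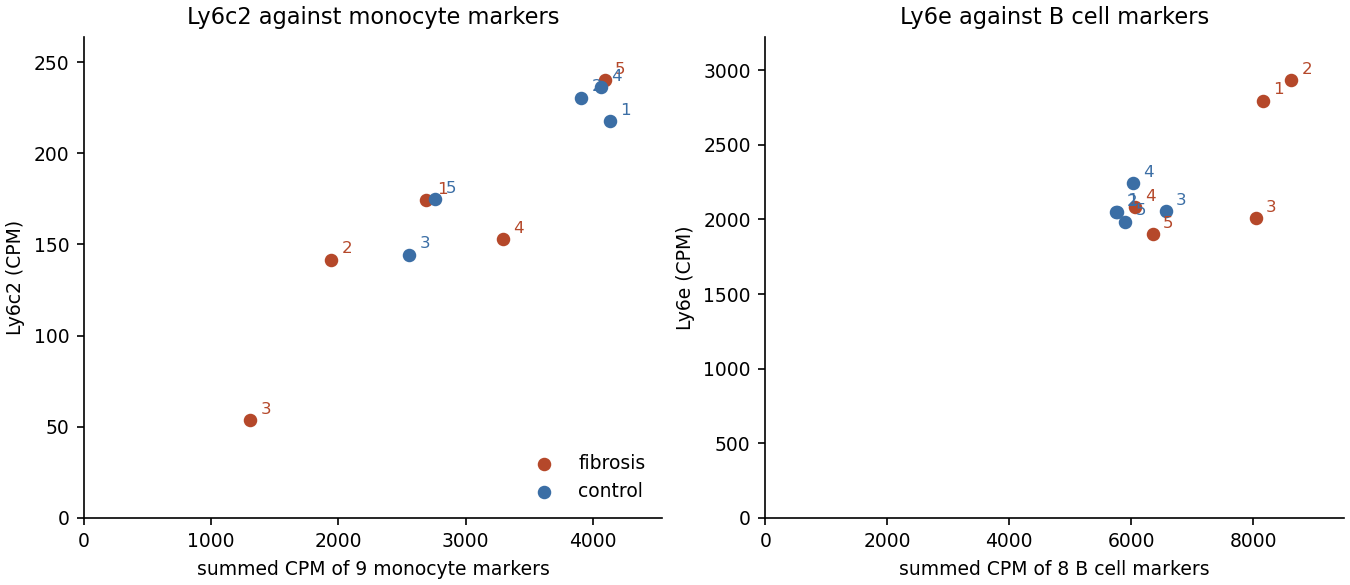
Ly6c2 against the summed CPM of 9 monocyte markers (left) and Ly6e against the summed CPM of 8 B cell markers (right), 1 point per library, numbered by replicate, on linear axes from 0. Fibrosis 3 is lowest on both axes at left, and fibrosis 1 and 2 are highest in Ly6e at right.

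Ly6c1 was close to the detection limit. It had 17, 2, 2, 17 and 18 counts in fibrosis 1 to 5, against 2, 9, 7, 8 and 1 counts in control 1 to 5. That is 0.760 ± 0.593 CPM in the fibrosis group and 0.298 ± 0.200 CPM in the control group (SD, n = 5 each). The groups overlapped, and fibrosis 1, 4 and 5 held nearly all fibrosis counts. Ly6c1 is known from endothelium, and 10 endothelial markers summed to 91.5 to 222.6 CPM in fibrosis, highest in libraries 4 and 5 but lowest of all libraries in fibrosis 1, and to 120.9 to 144.7 CPM in control. Their part was not tested. The gene did not pass the filter on low counts and was not tested. With no filter its log2 fold change was 1.24 ± 0.48 (SE, adjusted p = 0.0620 by edgeR), and DESeq2 gave 1.31 (adjusted p = 0.162). In the 5 alternatives that included it, adjusted p lay between 0.0620 and 0.411, and none passed. Its sum over all libraries was 56 counts in fibrosis and 27 in control, against 11669 and 17954 counts for Ly6c2. Adding the counts of both genes before the fit gave a log2 fold change of -0.39 for the sum.

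The members did not move together. Ratios of the counts of 2 genes within a library need no scaling, and the 6 pairs of tested members were compared by a two-sided exact permutation test over 252 assignments, adjusted over the 6 pairs. The log2 ratio of Ly6a over Ly6e was -3.06 ± 0.36 in fibrosis and -4.14 ± 0.15 in control (SD, n = 5 each). This difference of 1.09 had an exact permutation p of 0.00794, the smallest the design allows (adjusted p = 0.0159, and 0.0119 to 0.0215 with libraries left out). Ly6a also rose relative to Ly6d, by 0.67, and relative to Ly6c2, by 1.76, with the same p. In these ratios the 5 fibrosis libraries all lay above the 5 control libraries.

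Ly6c2 fell relative to Ly6d by 1.09 (exact permutation p = 0.0159, adjusted p = 0.0239). Without control 2 or 4 it was at -1.02 and -1.05 and did not pass (exact permutation test, adjusted p = 0.0596 in both). Ly6d over Ly6e was 0.41 higher in fibrosis (exact permutation p = 0.0238, adjusted p = 0.0286). It did not pass without control 2, 4 or 5 (0.41, 0.41 and 0.39, adjusted exact permutation p from 0.0762 to 0.0857), and was 0.17 without fibrosis 4 and 5 (adjusted p = 0.0714). Ly6c2 over Ly6e differed by -0.68 and did not pass (exact permutation p = 0.111). It passed without fibrosis 5 (-0.95, adjusted exact permutation p = 0.0238) and without fibrosis 4 and 5 (-1.14, adjusted p = 0.0215).

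As a share of the reads of all 5 genes, Ly6a took 7.51 ± 1.19% in fibrosis and 3.86 ± 0.38% in control. Ly6d took 26.3 ± 3.86% in fibrosis and 21.5 ± 0.78% in control. Ly6e took 62.1 ± 6.08% in fibrosis and 68.0 ± 0.96% in control, and Ly6c2 4.04 ± 1.85% in fibrosis and 6.56 ± 1.13% in control (SD, n = 5 each). Of all counts, the 5 genes together made up 0.311% to 0.430% in fibrosis and 0.296% to 0.342% in control.

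Levels of different genes can be compared only per length, and here the order depended on the length used. By the authors' deposited FPKM, which divides by the listed length, Ly6d was highest, at 1011 to 1468 in fibrosis and 799 to 949 in control. Ly6e followed at 470 to 769 FPKM in fibrosis and 526 to 593 FPKM in control, then Ly6a at 174 to 282 FPKM in fibrosis and 85.9 to 109.5 FPKM in control. Ly6c2 stood at 19.4 to 82.1 FPKM in fibrosis, below every value of Ly6a there, and at 52.0 to 86.4 FPKM in control, where the genes just overlapped. Ly6c1 was below 1 FPKM throughout, at most 0.792 in fibrosis and 0.296 in control.

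The listed length of Ly6e was 3784 bases and that of Ly6c2 was 2740 bases, while their longest coding transcripts in GENCODE vM21 had 2281 and 822 bases. Per kilobase of the longest coding transcript, Ly6d was at 1320 ± 203 CPM in fibrosis and 884 ± 60.6 CPM in control. On that scale Ly6e was at 1030 ± 211 CPM in fibrosis and 910 ± 42.4 CPM in control, so the values of the genes overlapped in both groups. Ly6c2 was then at 65.3 to 292 CPM per kilobase in fibrosis and 176 to 288 in control, and Ly6a at 222 to 358 in fibrosis and 108 to 140 in control. Ly6a thus lay below Ly6c2 in control, without overlap, and overlapped with it in fibrosis. By the median coding transcript length Ly6e came before Ly6d, with 2950 ± 606 CPM per kilobase in fibrosis and 2610 ± 122 in control.

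**Figure D3:**
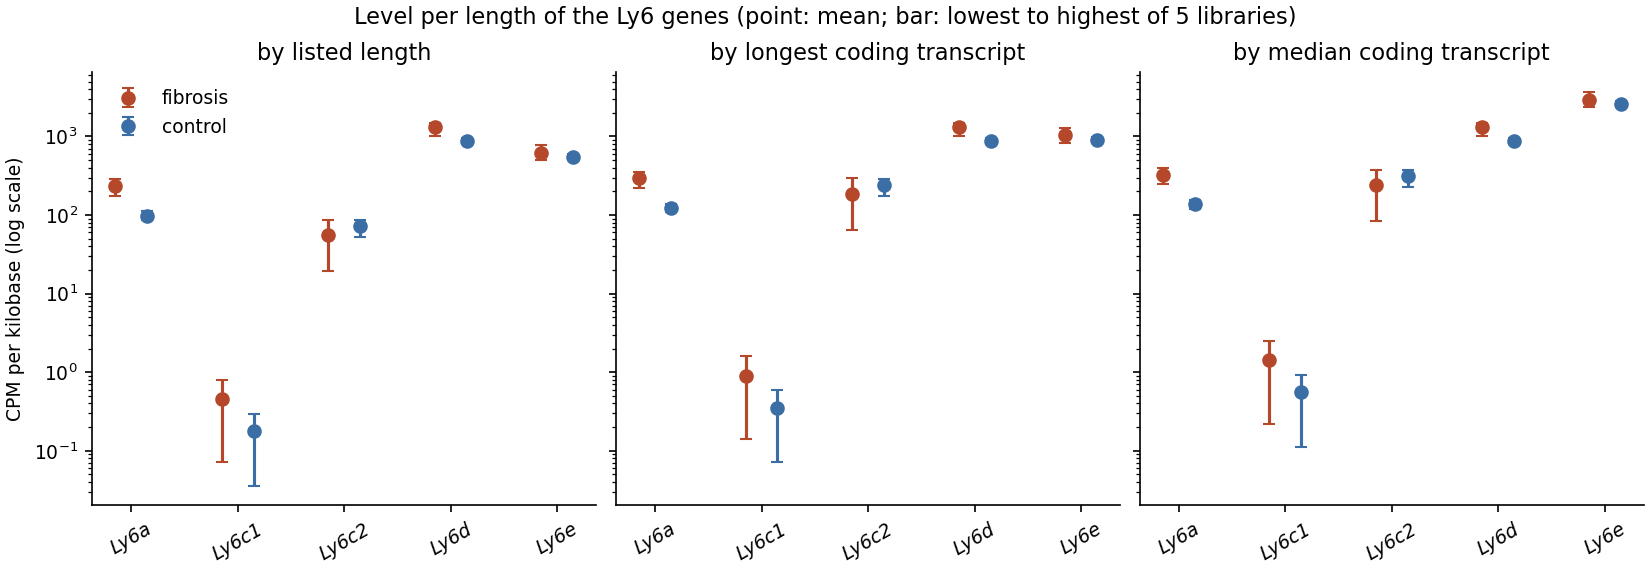
Level of each Ly6 gene in CPM per kilobase (log axis) by the listed length, the longest coding transcript and the median coding transcript, as the mean with a bar from the lowest to the highest of 5 libraries, fibrosis left of control. Ly6e and Ly6d change places with the length used, and so do Ly6a and Ly6c2 in control, while Ly6c1 stays lowest.

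Genes that followed the members most closely were sought as the smallest root-mean-square difference in log2 level relative to the control mean, over 10 libraries and 10724 protein-coding genes of at least 2 CPM. For Ly6a the closest was Serpina3g, an intracellular protease inhibitor (difference 0.11), at 311 ± 66.1 CPM in fibrosis and 139 ± 15.2 CPM in control. Fam149a (0.18) and Crebl2 (0.19) came next. For Ly6d they were the immunoproteasome gene Psmb9 (0.08), B2m, the light chain of class I molecules (0.09), and Ly86, partner of the receptor RP105 (0.10). For Ly6e they were Rin3 (0.05), Pqbp1 (0.06) and Cant1 (0.06), and for Ly6c2 the antiviral gene Ifitm3 (0.17), the peroxisomal transporter gene Abcd2 (0.19) and Lyz2, the lysozyme of myeloid cells (0.19). These likenesses are a description of the libraries, with no test.

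Other genes listed with the Ly6 and urokinase receptor family were mostly too low to test. The list goes by gene symbol, and whether each protein has the Ly6 fold was not checked. Of 39 symbols listed, 5 were absent from the table, 23 did not pass the filter and 11 were tested. Among these 4 were higher, 1 was lower and 6 were not called, with a median log2 fold change of 0.20, against 0.05 for all tested genes. The share called was 45.5%, against 35.7% of all tested genes. That median was -0.48 without fibrosis 4 and 5, 0.08 without fibrosis 5 alone, and 0.33 to 0.56 when fibrosis 1, 2 or 3 or any control was left out. On all libraries it was -0.51 by limma voom with quality weights and -0.099 with the replicate block, so it has no stable sign. Plaur, the urokinase receptor, rose by 0.62 ± 0.09 (SE, adjusted p = 0.000237 by edgeR), to 91.3 ± 7.57 CPM in fibrosis against 59.4 ± 5.88 CPM in control. Lynx1, which binds nicotinic acetylcholine receptors, fell by 0.59 ± 0.11 (SE, adjusted p = 0.00143 by edgeR), to 111.3 ± 16.8 CPM in fibrosis against 167.4 ± 17.0 CPM in control. All fibrosis libraries lay above the controls for Plaur and below them for Lynx1.

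Ly6g6f, expressed in platelets, rose by 2.13 ± 0.37 (SE, adjusted p = 0.000698 by edgeR), with 4.90 ± 2.62 CPM in fibrosis and 1.11 ± 0.11 CPM in control. The 7 platelet markers were all called higher, against 18.6% of all tested genes. They summed to 292 to 1206 CPM in fibrosis and 177 to 220 CPM in control. Ly6g6f was lowest in fibrosis 1 and 2 and highest in fibrosis 4 and 5, as these markers were, and their part in its rise was not tested. Gml rose by 1.69 ± 0.33 (SE, adjusted p = 0.00156 by edgeR) at a low level, 1.22 ± 0.43 CPM in fibrosis and 0.371 ± 0.077 CPM in control. Ly6k, known from testis and sperm, rose by 1.00 ± 0.33 (SE, adjusted p = 0.0320 by edgeR) to 3.98 ± 1.38 CPM in fibrosis against 2.004 ± 1.02 CPM in control, but did not pass without fibrosis 1 or 2 or control 1, 2, 3 or 4 (0.78 to 0.99, with adjusted p-values of 0.0539 to 0.0819 by edgeR; 0.00145 to 0.0993 over all alternatives).

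Ly6g, the neutrophil antigen, was at 0.70 ± 0.675 (SE, adjusted p = 0.451 by edgeR), and its highest values were in fibrosis 4 and 5, as for the neutrophil markers. Without those libraries it was at -0.99 (adjusted p = 0.130 by edgeR; 0.130 to 0.884 over all alternatives). Cd59a, which blocks the complement attack complex, was at -0.64 ± 0.29 (SE, adjusted p = 0.108 by edgeR), and it passed without fibrosis 4 (-0.94, adjusted p = 0.0109) and without fibrosis 4 and 5 (-1.05, adjusted p = 0.00851; 0.00198 to 0.280 over all alternatives). Cd59b, Cd177, Ly6i and Ly6g5b had log2 fold changes between -0.14 and 0.20 and were not called.

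Within 200 kb of a member lay 40 other genes, of which 13 were tested, 3 were higher and 2 were lower. With 35.7% of all tested genes called, these 5 of 13 are near the background and are given as a description. The lower genes were Lynx1 and its neighbour Them6, which fell by 0.64 ± 0.13 (SE, adjusted p = 0.00193 by edgeR). They lie on the same side of Ly6d, which rose. The higher genes were Ly6k, Gml and the noncoding gene Gm39556, upstream of Ly6e, at 0.59 ± 0.18 (SE, adjusted p = 0.0223 by edgeR). Gm39556 did not pass without fibrosis 5 (0.47), without control 1 (0.48) or without fibrosis 4 and 5 (0.44), with adjusted p of 0.0538 to 0.0839 by edgeR (0.00979 to 0.0839 over all alternatives). I830127L07Rik, listed as a pseudogene next to Ly6c2 and named Ly6a2 in RefSeq, had 38.90 ± 18.7 CPM in the fibrosis group and 45.003 ± 13.4 CPM in the control group and was not called. Ly6k overlaps the antisense gene Gm17189, and Them6 overlaps Slurp1 on the opposite strand. With the use of strand not given, reads from the overlaps cannot be told apart. Gm17189 had 5 counts in fibrosis and 5 in control, and Slurp1 had 1 in fibrosis and 5 in control.

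**Figure D4:**
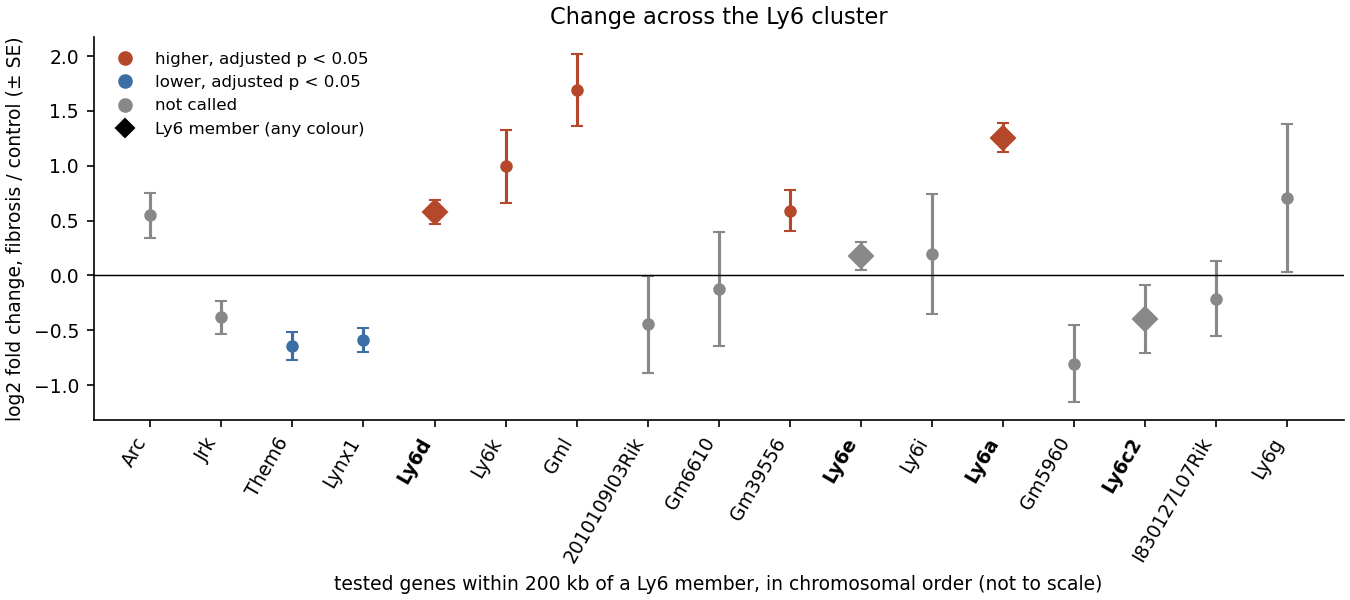
Log2 fold change of fibrosis over control (± SE, edgeR) for the 17 tested genes within 200 kb of a Ly6 member, in chromosomal order, with members as diamonds. Ly6a and Ly6d are higher, Them6 and Lynx1 beside Ly6d are lower, and Ly6e and Ly6c2 are not called.

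Ly6 proteins need the GPI anchor, which is built in the endoplasmic reticulum and attached to the finished protein. All 29 genes of anchor synthesis, attachment and remodelling were tested. Of these 6 were higher, 4 lower and 19 not called, with a median log2 fold change of -0.0035. The share called, 34.5%, was near the 35.7% of all tested genes. Piga and Pigq, of the complex for the first step, fell by 1.07 ± 0.12 and 1.11 ± 0.15 (SE), with Piga at 10.96 ± 1.75 CPM in fibrosis and 22.9 ± 2.07 CPM in control. Another subunit of that complex, Pigp, rose by 0.52 ± 0.14. Gpaa1, a subunit of the transamidase that attaches the anchor, fell by 0.58 ± 0.09, and Pgap1, which trims the attached anchor, rose by 1.03 ± 0.13, to 100.6 ± 18.2 CPM in fibrosis against 49.1 ± 7.56 CPM in control. The adjusted p of these genes by edgeR was 0.000331 or less, apart from Pigp (0.00900). Changes of genes passing beyond the 4 smallest p-values of a list, such as Pigp, were not recomputed under the alternatives. Without control 2 or without control 5, 6 of these genes were called instead of 10.

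Of 15 other GPI-anchored leukocyte proteins, 14 were tested, 6 were higher, 2 lower and 6 not called. The median was 0.49, against 0.05 for all tested genes. It was 0.18 without fibrosis 4 and 5 and 0.31 without fibrosis 4 alone. On all libraries it was 0.27 by limma voom with quality weights, 0.31 by log2 of FPKM plus 1 and 0.38 with library size only. Over all alternatives it lay between 0.18 and 0.59. The share called was 57.1%, against 35.7% of all tested genes, of which 18.6% were higher and 17.2% lower. The semaphorin Sema7a rose by 0.92 ± 0.11, the ectonucleotidase Nt5e by 1.85 ± 0.25 and the complement regulator Cd55 by 1.05 ± 0.17 (SE, adjusted p of 0.000512 or less by edgeR). Cd24a, the heat-stable antigen of immature B cells and also of erythroid cells, fell by 0.99 ± 0.12, to 522 ± 84.0 CPM in fibrosis against 1037 ± 131 CPM in control. Of 7 lymphoid progenitor markers 6 fell, and of 9 erythroid markers 6 fell, with summed erythroid levels of 797 to 6131 CPM in fibrosis and 3298 to 5540 CPM in control. Their part in the fall of Cd24a was not tested.

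As background to Ly6a and Ly6e, 12 interferon receptor and signalling genes and 41 type I interferon response genes were examined. Of the 12, 3 were higher and 1 lower, with a median of 0.16, and the share called, 33.3%, was near the 35.7% of all tested genes. The kinase gene Jak2 rose by 0.64 ± 0.10 (SE, adjusted p = 0.000374 by edgeR), to 122.4 ± 11.3 CPM in fibrosis against 78.7 ± 9.81 CPM in control. Jak1 was at 0.38, the interferon-gamma receptor chain gene Ifngr2 at 0.30 and the type I receptor chain gene Ifnar2 at -0.22, with adjusted p of 0.0151, 0.0201 and 0.0335 by edgeR. Jak1 did not pass without fibrosis 3 (0.32), Ifngr2 without control 3 (0.27) or without fibrosis 4 and 5 (0.20), and Ifnar2 without fibrosis 2 or 3 or control 1, 2, 4 or 5 (-0.23 to -0.20), with adjusted p of 0.0501 to 0.0838 by edgeR and up to 0.160 over all alternatives.

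Of the 41 response genes, 3 were higher, 8 lower and 30 not called, with a median of -0.14 (-0.30 without fibrosis 4 and 5). The share called was 26.8%, against 35.7% of all tested genes. Cmpk2 fell by 1.118 ± 0.10, to 31.8 ± 4.28 CPM in fibrosis against 69.1 ± 4.60 CPM in control, and Isg20 by 1.18 ± 0.17 and Lgals3bp by 0.73 ± 0.16 (SE, adjusted p of 0.00337 or less by edgeR). The antiviral genes Oas3, Mx1, Oas2, Oas1a and Rtp4 fell by 0.93, 0.58, 0.62, 0.50 and 0.60. Epsti1 rose by 0.73 ± 0.13, Samd9l by 0.61 ± 0.18 and Ifi203 by 0.52 ± 0.17. Without control 1, 2 or 4, 7 of the 41 genes were called. Any part of interferon in the Ly6a and Ly6e values was not tested.

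**Figure D5:**
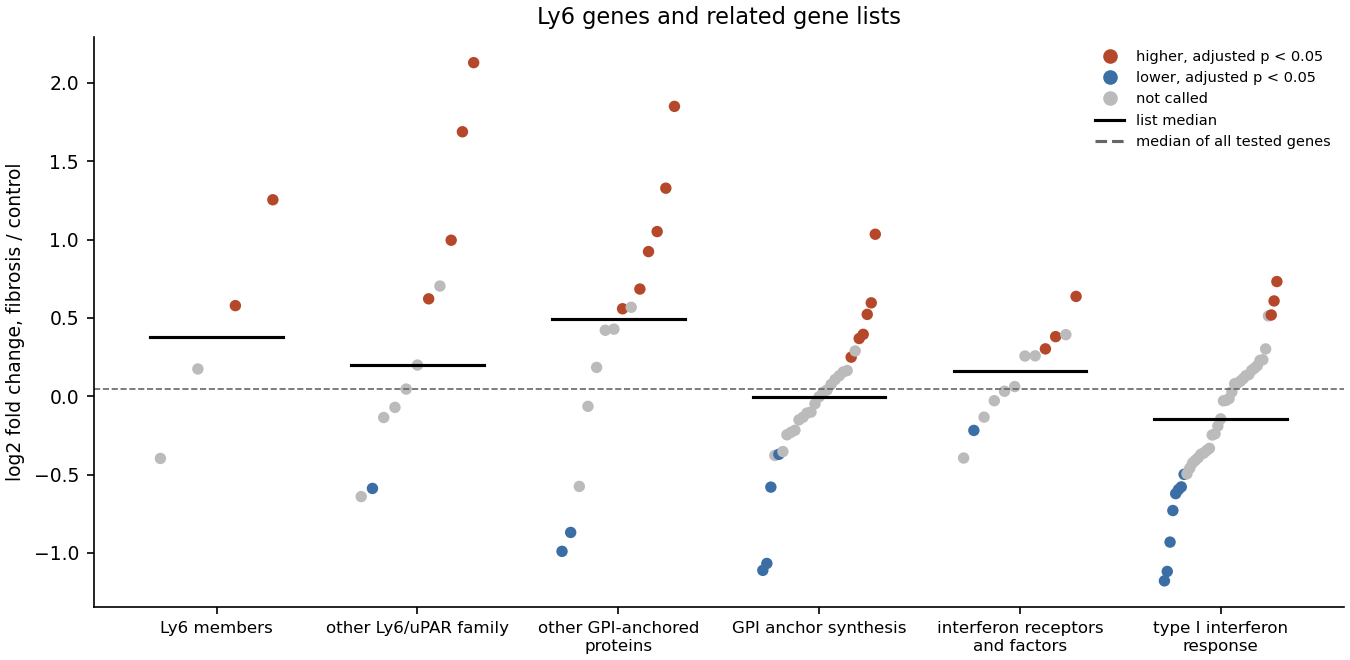
Log2 fold change of fibrosis over control for the tested genes of 6 lists, 1 point per gene, coloured by call at an adjusted p under 0.05 (edgeR), with the list median as a black line and the median of all tested genes (0.05) as a dashed line. Ly6a is the highest Ly6 member at 1.25, and the type I interferon response list has its median below 0.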

How the data were processed

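RNA was sequenced from 10 splenic B cell libraries, 5 fibrosis and 5 control, grouped by the labelled disease state. Per the labels' protocols, mRNA was captured with poly-T beads and primed with random hexamers. The authors deposited whole-number read counts per gene and FPKM, on GRCm38 per the submitters' processing notes; the sources used here give no aligner, counter or use of strand. From the values, FPKM equals count over listed length and library total, times a factor of 0.935 to 1.07 per library. edgeR 4.0.16 (R 4.3.3) kept 14283 of 54532 genes with filterByExpr, which held 99.9% of the counts, scaled libraries by TMM, and compared groups by its quasi-likelihood test with robust dispersion, no covariate and Benjamini-Hochberg adjustment. P-values rest on the spread among libraries, some of which may be technical, and edgeR's common coefficient of variation was 0.183.

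Levels are TMM-scaled CPM, and fold changes are log2, fibrosis minus control. The members and lists were chosen with earlier results of these data known. Named are the 5 members, tested family genes and neighbours within 200 kb, up to 4 genes with the smallest p per other list, and the 3 most similar genes per member; further genes of a list that passed, the within-library ratios and the levels per transcript length were added after values were seen. Alternatives were RLE or library-size scaling, no or a stricter filter, DESeq2 1.42.0, limma 3.58.1 (voom, or log2 of FPKM plus 1 or 0.1), protein-coding genes alone, summed Ly6c1 and Ly6c2, a replicate block and leaving out each library. Added after the data were seen were leaving out fibrosis 4 and 5 together, and also summing I830127L07Rik. The code was tested on simulated counts.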

Additional observations from a re-analysis of the deposited data

Results flagged for a closer look

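Among 132 groups of 5 values examined, 10 held a library far from the other 4 (a gap over 0.71 of the range), where chance flags about 1 in 20 groups. Of the members this concerned Ly6e in control 4, at 2242 CPM against 1985 to 2057 CPM in the other controls. In fibrosis, Ly6g5b was at 1.89 CPM in fibrosis 5, Ifitm3 at 62.5 CPM in fibrosis 3, Cd55 at 333 CPM in fibrosis 3 and Isg20 at 60.2 CPM in fibrosis 4. In control, Gm39556 was at 5.52 CPM in control 1, Cd24a at 1264 CPM in control 5, Nt5e at 0.550 CPM in control 2 and Ifngr2 at 82.4 CPM in control 3. The NK cell markers summed to 118.4 CPM in control 4.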

How the results depend on the processing

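Over 24 alternatives, Ly6a (1.14 to 1.32) and Ly6d (0.47 to 0.64) were called higher in every fit, and Ly6c2 (-0.70 to -0.20) in none. Ly6e (0.07 to 0.32) passed only without fibrosis 4 and 5, at 0.32; the cause was not tested. Genes called over the whole table numbered 3931 to 5799, against 5105. With library size alone, 35.0% of calls were higher (1777 higher, 3306 lower) against 52.0% (2654 higher, 2451 lower), and the median gene was at -0.062 against 0.045. With no filter 8 other Ly6 family genes were called, against 5 of the 11 tested in the main fit. The unfiltered fit also tested family genes with few counts, so the 2 counts cannot be compared as shares. Over the table it called 2328 genes higher and 2698 lower. With FPKM and no filter 2 interferon receptor genes were called, against 4, and 6 type I response genes, against 11. When single libraries were left out, the calls numbered 4135 to 5496 over the table, 5 to 7 for other Ly6 genes, 6 to 11 for GPI synthesis, 8 to 10 for other GPI-anchored proteins, 3 to 5 for interferon receptor genes and 7 to 15 for type I response genes.

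Among single genes, changes of sign occurred only in genes that were not called. Cd59b was at -0.061 (library size), -0.018 (no filter), -0.59 (voom), -0.052, -0.15 and -0.052 (FPKM plus 1, plus 0.1, and unfiltered), -0.10 (replicate block) and -0.51 (without fibrosis 4 and 5). Ly6i was at -0.63 (voom), -0.10, -0.31 and -0.10 (FPKM), -0.15 (replicate block) and -0.86 (without fibrosis 4 and 5), and Ly6g at -0.71 (voom) and -0.99 (without fibrosis 4 and 5). With single libraries left out, the ranges were -0.31 to 0.27 for Cd59b, -0.30 to 0.47 for Ly6i, -0.60 to 0.073 for Ly6g5b, -0.46 to 0.16 for Gm6610 and -0.33 to 0.057 for Cd177.

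Replicate numbers are shared by the groups, and same-numbered libraries deviated together for some numbers only. The correlations were 0.116, -0.142, 0.472, 0.285 and -0.287 for numbers 1 to 5, with 2 of 5 best with their own number. With the replicate block, 2677 genes were higher and 2534 lower, and Ly6a was at 1.24, Ly6d at 0.57, Ly6e at 0.15 and Ly6c2 at -0.52. Depth limits Ly6c1, with 83 counts in all.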
